A study of Mus musculus with 11 samples.

Results

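The genes described here are the histone genes of the mouse and their testis variants, followed through single male germ cells from spermatogonia to the pachytene stage of meiosis. They were chosen by name: every row of the deposited UMI table whose symbol begins with Hist1h, Hist2h, Hist3h, Hist4h, H2af or H3f3, with H1f0, H1fx, H1fnt, H1foo and Hils1, and without H2afx. The rule found 78 of the 20389 rows: 61 genes of the histone clusters, 10 replacement variants, 6 testis variants and the oocyte variant H1foo. The cells came from the testes of 3 untreated adult mice that carry a Dazl-GFP reporter. Dazl is a germ cell gene, and live GFP-positive cells were sorted singly into wells. Mouse 1 gave 8 libraries by CEL-Seq1, mouse 2 gave 1 library and mouse 3 gave 2 libraries by CEL-Seq2. CEL-Seq counts the 3′ end of each polyadenylated RNA with a unique molecular identifier (UMI), so a molecule is meant to count once whatever its length. The mouse is the replicate (n = 3), and the protocol cannot be told apart from mouse 1. The labels give no strain, age in weeks or other treatment.

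DNA is wound around octamers of the core histones H2A, H2B, H3 and H4, and linker histones of the H1 family sit where DNA enters and leaves. Genes of the clusters are copied in S phase, when new chromatin is made, and most of their mRNAs end in a stem-loop instead of a poly(A) tail. Replacement variants such as H3.3 and H2A.Z are made at any time from ordinary polyadenylated mRNAs and are exchanged into chromatin outside replication. Male germ cells also use testis variants: H1t, TH2A and TH2B during meiosis, and H1T2, HILS1 and short H2A proteins in spermatids. Protamines then take the place of most histones.

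The 3′ ends of these genes are shown because an oligo(dT) method reads only RNA with a poly(A) tract. In the GENCODE M21 annotation of GRCm38 (mm10), 44 of the 61 cluster genes held the 16-base histone stem-loop, in each of them in the 3′ UTR, and 8 different stem-loops were found. The form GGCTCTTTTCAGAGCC was the commonest, in 26 genes. Some cluster genes without a match have short annotated transcripts, such as 393 bases for Hist1h2ai and 312 for Hist1h4k. A loop beyond the annotated end would be missed, so no match does not show that the loop is absent. None of the 10 replacement variants held the stem-loop, and 8 of them held AATAAA, the poly(A) signal, in the last 50 bases of the transcript. Of the cluster genes, 13 also held AATAAA there, and 19 ended within 50 bases after the loop. The windows below are given 5′ to 3′ on the transcribed strand with the stem-loop in capitals. Hist1h2ao, Hist2h2aa1 and Hist2h2aa2 are H2A genes counted almost only in mouse 1, Hist1h4i is an H4 gene that was counted mainly in early stages, and Hist1h1t is the testis linker gene.
Hist1h2ao: aaaaGGCTCTTTTCAGAGCCatcc
Hist2h2aa1: aaaaGGCTCTTTTCAGAGCCaccc
Hist2h2aa2: aaaaGGCTCTTTTCAGAGCCaccc
Hist1h4i: taaaGGCCCTTTTTAGGGCCacca
Hist1h1t: caaaGGCTCTTTTAAGAGCCactt
Hist3h2a: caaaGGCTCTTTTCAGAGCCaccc
Hist2h3c1: caaaGGCTCTTTTCAGAGCCacca
They lie at chr13:21810894-21810917 (plus strand), chr3:96246028-96246051 (plus strand), chr3:96239780-96239803 (minus strand), chr13:22040962-22040985 (minus strand), chr13:23696521-23696544 (plus strand), chr11:58955168-58955191 (plus strand) and chr3:96247323-96247346 (plus strand), all in the 3′ UTR of the only exon. The annotated transcripts of Hist1h2ao ended 31 bases and those of Hist2h2aa1 and Hist2h2aa2 35 bases after the loop. Those of Hist1h1t, Hist2h3c1 and Hist3h2a went on for 185, 1167 and 1643 bases.

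Hist3h2a, which rose from stage 1 to 12, and Hist2h3c1, which was not tested, carried a poly(A) signal downstream of the loop. Hist2h2be, which rose as well, had the signal and no match to the stem-loop. Their signals are set beside those of the most counted replacement variants, with AATAAA in capitals.
Hist3h2a: gtatatgcccAATAAAataagagtac
Hist2h3c1: ttttaatcccAATAAAaatttaacac
Hist2h2be: tattattattAATAAAgttaccgatt
H3f3b: aggccttacaAATAAActagtaagtt
H3f3a: tttgaaaaatAATAAAagtaccaata
H2afz: ggataagctcAATAAAggtcatatcc
They lie at chr11:58956787-58956812 (plus strand), chr3:96248477-96248502 (plus strand), chr3:96223707-96223732 (plus strand), chr11:116021989-116022014 (minus strand), chr1:180800838-180800863 (minus strand) and chr3:137866792-137866817 (plus strand). Hist4h4, an H4 gene, held both elements as well, with 2445 bases between the loop and its transcript end. The testis linker gene Hist1h1t also carried the signal downstream of its loop. An annotated signal is a description of the sequence and does not show which end was used in these cells.

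Promoters were compared as the 250 bases upstream of the RefSeq start (GRCm38.p6), where 71 members matched an entry, 55 of them cluster genes. On either strand, CCAAT, the box bound by NF-Y, was in 45 of the 55 cluster promoters and in 33.8% of 32851 promoters of the same length. TATAAA was in 24 of 55 and 12.4%, the octamer ATTTGCAT in 12 of 55 and 1.6%, the GC box GGGCGG in 19 of 55 and 32.7%, the histone H1 AC box AAACACA in 6 of 55 and 6.2%, and TGACGTCA in 4 of 55 and 1.5%. The 6 with the AC box were the H1 genes Hist1h1b, Hist1h1c, Hist1h1d and Hist1h1e, with Hist1h2ab and Hist1h2bm. The H1 gene Hist1h1a did not hold it. Hist1h2aa, which encodes TH2A, and Hist1h2ba, which encodes TH2B, lie head to head and share most of their upstream window. That window is shown with Hist1h1a, a linker gene that peaked at the same stage, and with Hist1h1t. Capitals mark every match to these 6 motifs on either strand, none of which overlap in these windows.
Hist1h2aa: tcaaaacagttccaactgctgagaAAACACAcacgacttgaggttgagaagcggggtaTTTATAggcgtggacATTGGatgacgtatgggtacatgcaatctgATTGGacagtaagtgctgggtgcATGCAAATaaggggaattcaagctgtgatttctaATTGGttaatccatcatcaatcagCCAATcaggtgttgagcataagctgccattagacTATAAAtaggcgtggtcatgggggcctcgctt
Hist1h1a: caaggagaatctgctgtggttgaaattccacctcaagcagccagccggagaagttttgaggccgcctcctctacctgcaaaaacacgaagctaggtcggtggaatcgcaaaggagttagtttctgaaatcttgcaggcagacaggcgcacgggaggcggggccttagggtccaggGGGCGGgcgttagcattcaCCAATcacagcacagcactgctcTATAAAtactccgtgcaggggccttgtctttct
Hist1h1t: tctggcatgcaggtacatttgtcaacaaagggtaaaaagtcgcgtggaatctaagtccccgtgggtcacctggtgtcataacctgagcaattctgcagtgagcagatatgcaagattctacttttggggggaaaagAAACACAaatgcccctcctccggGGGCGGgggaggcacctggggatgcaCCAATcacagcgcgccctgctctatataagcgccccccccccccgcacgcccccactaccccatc
They lie at chr13:23934187-23934436, plus strand, at chr13:23763418-23763667, plus strand and at chr13:23695561-23695810, plus strand. The window of Hist1h2aa holds 4 copies of CCAAT on both strands together, 2 of TATAAA, and 1 each of the octamer and the AC box, while the others hold 1 CCAAT each. No binding data were used here, so a match names letters and not a bound site.

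Of 1920 wells, 1448 held at least 1000 UMIs and 1193 of these cells fell into 12 stages, ordered from undifferentiated spermatogonia (stage 1) to pachytene (stage 12). The stages were made with genes of even-numbered autosomes, without any histone gene and without the gene lists used below. Stages 2 and 3 resembled differentiating spermatogonia, stage 4 preleptotene cells, stages 7 and 8 leptotene and zygotene cells, and stages 11 and 12 pachytene cells. Stages 5, 6, 9 and 10 stayed unnamed or lacked a marker among their leading genes, and are called by number. Stra8 led stage 5, and Rbpms2 led stage 6, with Dmc1 among its leading genes. Stage sums per mouse held 109933 to 5063204 autosomal UMIs, and RNA per ERCC spike-in was lowest in stage 7, at -1.75 ± 0.23 on the log2 scale against stage 1 (SD, n = 3). Sertoli markers together gave at most 5.39 UMIs per 10000 in any mouse and stage, peritubular and stromal markers at most 1.36, in stage 1, and endothelial, macrophage and Leydig markers each at most 0.236. The parts these cells play in the results were not tested. Levels below are CPM (UMIs per 1000000 autosomal UMIs) unless said otherwise, in the order mouse 1, mouse 2, mouse 3. Log2 differences come from edgeR, whose scaling moved the median gene by 0.25 against the printed levels between stages 1 and 12, so a small fitted difference can have the other sign from the printed ratio.

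The members were not counted alike in the mice. Of 43 members with 20 or more UMIs in staged cells, 12 had at least 90% of them from mouse 1, which gave 41.2% of all autosomal UMIs. These were Hist1h1d, Hist1h2ab, Hist1h2ad, Hist1h2ae, Hist1h2ah, Hist1h2ai, Hist1h2ao, Hist1h2ap, Hist1h2bq, Hist1h2br, Hist2h2aa1 and Hist2h2aa2, 9 of them H2A genes. Together they held 3534 UMIs in mouse 1 and 19 in mice 2 and 3. In 11 of the 12 the last 300 bases of the transcript shared an exact run of at least 100 bases with another member, against 7 of the other 31. Those 31 include the 10 replacement variants, none of which had such a run, so they are not a like group. The 7 were the cluster genes Hist1h1e, Hist1h2ag, Hist1h2bb, Hist1h2bp, Hist1h3a and Hist1h3h and the testis variant Hist1h2ba. Hist2h2aa1 and Hist2h2aa2 shared all 300 bases, as did Hist1h2bq and Hist1h2br, so UMIs of these copies cannot be assigned between them with certainty. Whether protocol, mapping or the animal set this difference cannot be told apart. The levels of Hist1h2ao, Hist2h2aa1 and Hist2h2aa2 are therefore given for mouse 1 alone, their folds and fits pool the mice, and the sums of the Hist1 genes and of the Hist2, Hist3 and Hist4 genes over the stages leave all 12 out. The total over all histone genes holds them.

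**Figure D1:**
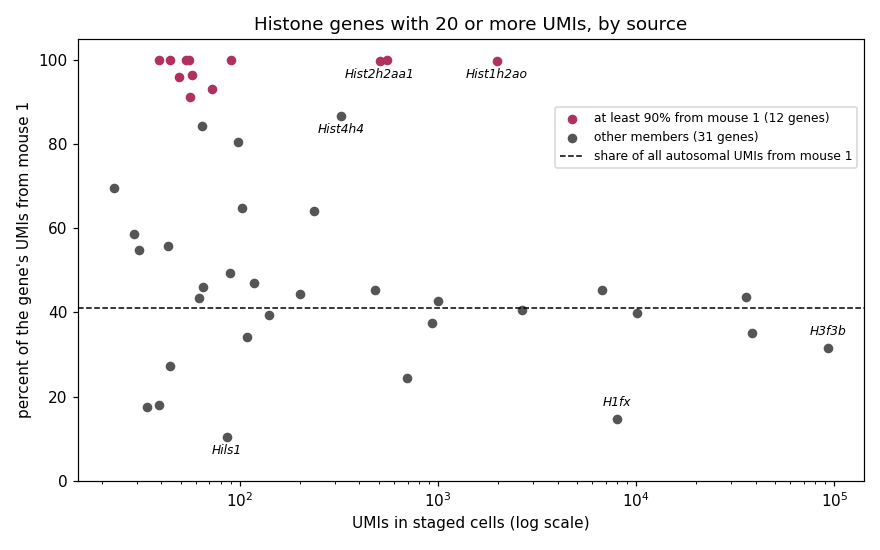
Percent of each gene's UMIs that came from mouse 1 (vertical axis) against its UMIs in all staged cells (horizontal log axis), for the 43 members with 20 or more UMIs. The 12 red points, Hist1h2ao and the Hist2h2aa copies among them, lie above 90%, the dashed line marks the 41.2% of all autosomal UMIs that mouse 1 gave, and H1fx and Hils1 lie well under it.

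The replacement variants made up nearly all of the histone RNA that was counted. They held 195526 of 202976 histone UMIs in staged cells (96.3%), the cluster genes 7013 and the testis variants 433, and H3f3b alone held 45.6%. All histone genes together gave 32.5 ± 3.11 UMIs per 10000 autosomal UMIs in stage 1, 66.9 ± 7.14 in stage 10 and 47.0 ± 7.34 in stage 12 (mean ± SD, n = 3). The replacement variants gave 26.8, 35.3 and 31.8 per 10000 in stage 1, 36.7, 41.5 and 36.7 in stage 7, 56.5, 68.7 and 71.2 in stage 10 and 36.6, 49.0 and 51.2 in stage 12. Stage 12 was above stage 1 in each mouse, and stage 10 above both. Counts of the most abundant genes in mouse 1 approach saturation, so its sums in the deep late stages can be too low. Per spike-in UMI, which follows RNA per cell, they were at -1.48 ± 0.36 on the log2 scale in stage 7 and at 2.30 ± 0.50 in stage 12, both against stage 1.

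The summed cluster genes of the Hist1 locus on chromosome 13 were higher in early stages, and those of Hist2, Hist3 and Hist4 in late ones. The 39 Hist1 genes outside the list of mouse 1 gave 0.576, 0.253 and 0.335 per 10000 in stage 1, 2.24, 1.19 and 0.49 in stage 5, 0.0624, 0.043 and 0.0494 in stage 11 and 0.0528, 0.215 and 0.0189 in stage 12. Stage 5 was their highest in mice 1 and 2 and stage 4, at 0.634, in mouse 3. The 39 genes held 52, 21 and 16 UMIs in stage 5, and 49 of these UMIs were from Hist1h1a alone. The peak in stage 5 thus rests largely on 1 linker gene and does not show the course of the other Hist1 genes. The 10 genes of Hist2, Hist3 and Hist4 gave 0.338, 0.169 and 0.126 in stage 1, 0.11, 0.066 and 0.0945 in stage 7 and 1.09, 0.607 and 0.951 in stage 12. Stages 11 and 12 lay under stage 1 for Hist1 in each mouse, though mouse 2 was close to its early value in stage 12, and stage 12 lay over stage 1 for the others in each mouse. Hist2h2be and Hist3h2a gave 718 of the 858 UMIs of those others in stage 12. No test was made on these sums.

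**Figure D2:**
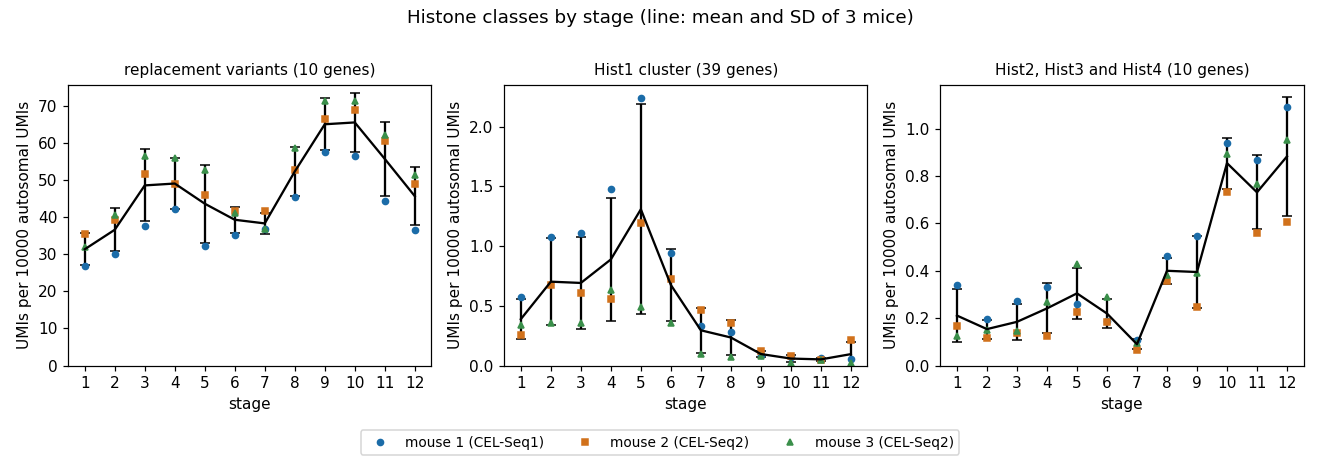
UMIs of 3 histone classes per 10000 autosomal UMIs (vertical axes, each from 0 with its own range) over the 12 stages, without the genes counted almost only in mouse 1. Points are mice and the line and bars are the mean and SD of 3 mice. The mean of the Hist1 genes peaks in stage 5, at 1.31 ± 0.88, carried by mice 1 and 2 while mouse 3 peaks in stage 4. Hist1h1a alone gave 49 of the Hist1 UMIs in stage 5, so this peak rests largely on 1 gene. The Hist2, Hist3 and Hist4 genes reach 0.883 ± 0.25 in stage 12.

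Of the 78 members, 21 passed the filter on low counts, all 10 replacement variants, 10 cluster genes and Hist1h2aa. The filter keeps genes that are high in some stage, so these 21 do not stand for the rest. Between stages 12 and 1, 9 were called higher (background 34.4% of the 11269 genes tested, and 34.2% of genes on odd autosomes, X and Y) and 8 lower (background 41.0% and 42.0%). Between stages 7 and 1, 4 were higher (22.6% and 22.4%, in the same order) and 4 lower (28.7% and 28.9%). Between stages 12 and 7, 10 were higher (30.0% and 30.3%) and 4 lower (28.1% and 29.8%). Over all stages 20 of 21 changed, as did 95.4% and 95.7% of the background. Over the 11 steps between neighbouring stages, 24 of 231 tests were called higher (7.74% and 7.64%) and 18 lower (7.52% and 7.61%), and they fell on 13 members. The 10 replacement variants had a median log2 difference of 0.54 between stages 12 and 1, and all genes tested had -0.16. Of these variants 5 were higher, 3 lower and H2afy and H3f3a not called.

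H3.3 is encoded by H3f3a (chr1:180800832-180813943) and H3f3b (chr11:116021912-116027962), whose mRNAs give the same protein and took different courses. H3f3b stood at 647, 1014 and 997 CPM in stage 1, 2356, 2674 and 3029 in stage 4, 1618, 1919.7 and 1616 in stage 7, 2694, 3505 and 3788 in stage 9 and 1383, 2212 and 2358 in stage 12. It was lowest in stage 1 in every mouse, dipped at stages 6 and 7 and was highest in stage 9 or 10. It rose from stage 1 to 12 (log2 difference 1.44, SE 0.13, adjusted p = 1.9e-12), from stage 1 to 2 (log2 difference 0.81, SE 0.13, adjusted p = 1.3e-05) and from stage 7 to 8 (log2 difference 0.79, SE 0.13, adjusted p = 6.8e-05), and fell from stage 11 to 12 (log2 difference -0.38, SE 0.13, adjusted p = 0.047). The step into stage 8 was not called without mouse 3 (adjusted p = 0.091), nor that into stage 12 without mouse 2 (0.35) or 3 (0.34). H3f3a stood at 969.8, 1022 and 797 in stage 1, 809.5, 755 and 759.8 in stage 4, 306, 313 and 337 in stage 5, 1334, 1418 and 1142 in stage 10 and 787, 863 and 728 in stage 12. Stage 5 was its lowest point in each mouse and stage 10 its highest. It fell from stage 4 to 5 (log2 difference -1.25, SE 0.13, adjusted p = 1.9e-09) and rose from stage 8 to 9 (log2 difference 0.93, SE 0.12, adjusted p = 1.5e-07), while stages 12 and 1 were not called apart (log2 difference 0.05, SE 0.12, adjusted p = 0.71). H3f3b thus made up 48.5 ± 7.88% of the H3.3 UMIs in stage 1, 87.8 ± 2.45% in stage 5 and 70.7 ± 6.43% in stage 12 (n = 3). By mouse the share was 40, 49.8 and 55.6% in stage 1 and 63.7, 71.9 and 76.4% in stage 12. The most abundant genes of mouse 1 approach saturation of the possible UMIs. Cells of stage 12 were the deepest, with a median of 97720 UMIs against 26217 in stage 1. Late H3f3b levels and shares of mouse 1 can therefore be too low, and the size of this effect on them was not tested.

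The genes of H2A.Z, a variant found at promoters and other regulatory sites, parted in stages 5 and 6 and again late. H2afz (chr3:137864487-137866922) stood at 353, 535 and 583 in stage 1, 551, 552 and 805 in stage 5, 999, 1083 and 1381 in stage 8 and 945, 1112 and 1312 in stage 12. Stages 8 to 12 lay above stages 1 to 5 in every mouse. It rose from stage 1 to 12 (log2 difference 1.49, SE 0.12, adjusted p = 1.4e-13), with single called steps into stages 4, 6 and 8. Of these steps, that into stage 4 was not called without mouse 2 or 3 (adjusted p = 0.13 and 0.37), that into stage 6 without any of the mice (0.11 to 0.29) and that into stage 8 without mouse 3 (0.18). H2afv (chr11:6427229-6444443) stood at 373, 403 and 287 in stage 1, 64.6, 125 and 94.9 in stage 5, 378, 377 and 331 in stage 8, 157, 214 and 106 in stage 10 and 64.2, 68.5 and 50.5 in stage 12. It had low points in stage 5 or 6 and in stage 12, with a return to its early level between them. H2afv fell from stage 4 to 5 (log2 difference -1.46, SE 0.20, adjusted p = 2.5e-07), rose from stage 6 to 7 (log2 difference 1.32, SE 0.21, adjusted p = 1.6e-05), and fell at each of the 3 steps after stage 9, the first with log2 difference -1.26, SE 0.15, adjusted p = 3e-08. The step into stage 11 was not called without mouse 2 or 3 (adjusted p = 0.67 and 0.089), nor that into stage 12 without mouse 3 (0.085). H2afz made up 57.6 ± 9.19% of the UMIs of the pair in stage 1, 86.8 ± 4.6% in stage 5, 74.8 ± 7.04% in stage 9 and 94.7 ± 1.4% in stage 12. Among stages 1 to 9, H2afv was lowest in stage 5 in mice 1 and 3 and in stage 6 in mouse 2, beside the low of H3f3a in stage 5.

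MacroH2A carries a large extra domain and is known from silent chromatin, the inactive X among it. H2afy (chr13:56073619-56136361), which encodes macroH2A1, stood at 241, 380.2 and 334 in stage 1, 27.1, 27.6 and 46.0 in stage 3, 133, 87.3 and 151 in stage 8, 368, 332 and 355 in stage 10 and 338, 323 and 331 in stage 12. Every mouse was high in stage 1, low from stage 2 to 7 and high again from stage 10. It fell from stage 1 to 2 (log2 difference -2.24, SE 0.20, adjusted p = 1.3e-10) and rose from stage 7 to 8 (log2 difference 1.14, SE 0.30, adjusted p = 0.0084) and from 9 to 10 (log2 difference 1.08, SE 0.18, adjusted p = 2.3e-05). The last stage was not called apart from the earliest (log2 difference 0.35, SE 0.17, adjusted p = 0.066). It was called higher without mouse 1 or 2 (log2 difference 0.33 and 0.50, adjusted p = 0.03 and 0.035), although both mice that remain without mouse 1 stood lower in CPM in stage 12 than in stage 1: the scaled fit and the CPM differ in sign there. The step into stage 8 was not called without mouse 1 or 3 (adjusted p = 0.11 and 0.18). H2afy2 (chr10:61738665-61784147), which encodes macroH2A2, stood at 51.4, 76.0 and 38.8 in stage 1 and 4.21, 2.32 and 3.93 in stage 2, and its mean stayed under 4 afterwards. It fell from stage 1 to 2 (log2 difference -3.68, SE 0.47, adjusted p = 4.7e-07). H2afy3 (chr15:62218221-62219332), annotated as a processed pseudogene and sharing a run of 95 bases with H2afy2, held 1 UMI in stage 1 and 240 in stage 12, where it stood at 33.6, 20.5 and 23.1. The pooled level was 57.1-fold (exact 95% counting interval 10.1 to 2263) higher in stage 12, and edgeR called the rise (adjusted p = 2.3e-08). In each mouse its highest stage was stage 12, while H2afy2 stood at 2.22, 2.93 and 1.65 there.

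H2afj (chr6:136808244-136810074), which encodes the variant H2A.J, was the least counted H2A gene among the replacement variants outside the macroH2A genes. It stood at 7.52, 22.5 and 13.6 in stage 1, 21.0, 66.3 and 56.6 in stage 3, 2.85, 9.2 and 9.43 in stage 9 and 11.7, 25.4 and 19.8 in stage 12. Stage 3 was the highest in each mouse. It rose from stage 1 to 2 (log2 difference 1.23, SE 0.29, adjusted p = 0.0016) and fell from stage 4 to 5 (log2 difference -1.27, SE 0.40, adjusted p = 0.024). The first step was not called without mouse 3 (adjusted p = 0.17), nor the fall without mouse 1 or 3 (0.15 and 0.23). The rise from stage 1 to 12 (log2 difference 0.74, SE 0.29, adjusted p = 0.019) was lost without mouse 1 or without mouse 3, at adjusted p = 0.052 and 0.20.

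As shares of autosomal UMIs, both linker replacement genes were highest around stages 5 and 6. H1f0 (chr15:79028450-79030504), which encodes H1.0, a linker histone known from cells that leave the cell cycle, stood at 32.6, 28.2 and 45.1 in stage 1, 232, 216 and 220.4 in stage 5, 122, 198 and 144 in stage 8 and 21.4, 26.4 and 15.6 in stage 12. It rose into stages 2 (log2 difference 1.31, SE 0.23, adjusted p = 3.9e-05) and 3 (log2 difference 0.93, SE 0.19, adjusted p = 0.00065), and fell at each of the 4 steps from stage 8 to 12, with log2 differences from -0.74 to -0.62. Each of these 4 falls was lost in at least 2 of the 3 fits that left out a mouse, at adjusted p from 0.055 to 0.36, with the direction unchanged. The difference of stage 12 from stage 1 (log2 difference -0.64, SE 0.25, adjusted p = 0.019) was small beside that course and was lost without mouse 3 (log2 difference -0.20, adjusted p = 0.58). With spike-ins as the scale, which moved the median gene by 1.53, it was 0.94. Per spike-in UMI, H1f0 stood at 0.94 ± 0.51 in stage 8, on the log2 scale against stage 1 (SD, n = 3). It stood at 1.54 ± 0.022 in stage 10 and 1.02 ± 0.37 in stage 12. Stage 10 lay above stage 8 in each mouse on this scale, while the share fell. H1fx (chr6:87980421-87981637), which encodes H1X, stood at 8.77, 45.1 and 83.9 in stage 1, 119.7, 462 and 550.4 in stage 3, 271, 734 and 857 in stage 5, 25.6, 152 and 109 in stage 7 and 72.8, 247 and 284 in stage 12. Mouse 1 was the lowest of the mice at each of these stages, and stage 5 or 6 was the highest in every mouse. H1fx rose from stage 1 to 2 (log2 difference 2.19, SE 0.22, adjusted p = 1.8e-09) and from 4 to 5 (log2 difference 1.14, SE 0.19, adjusted p = 9.3e-06), fell from 6 to 7 (log2 difference -2.39, SE 0.26, adjusted p = 2.3e-08) and rose from 8 to 9 (log2 difference 1.05, SE 0.23, adjusted p = 0.00056). Per spike-in UMI, H1fx was highest in stage 12 in every mouse, at 4.19 ± 0.42 against 2.46 ± 0.46 in stage 5.

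**Figure D3:**
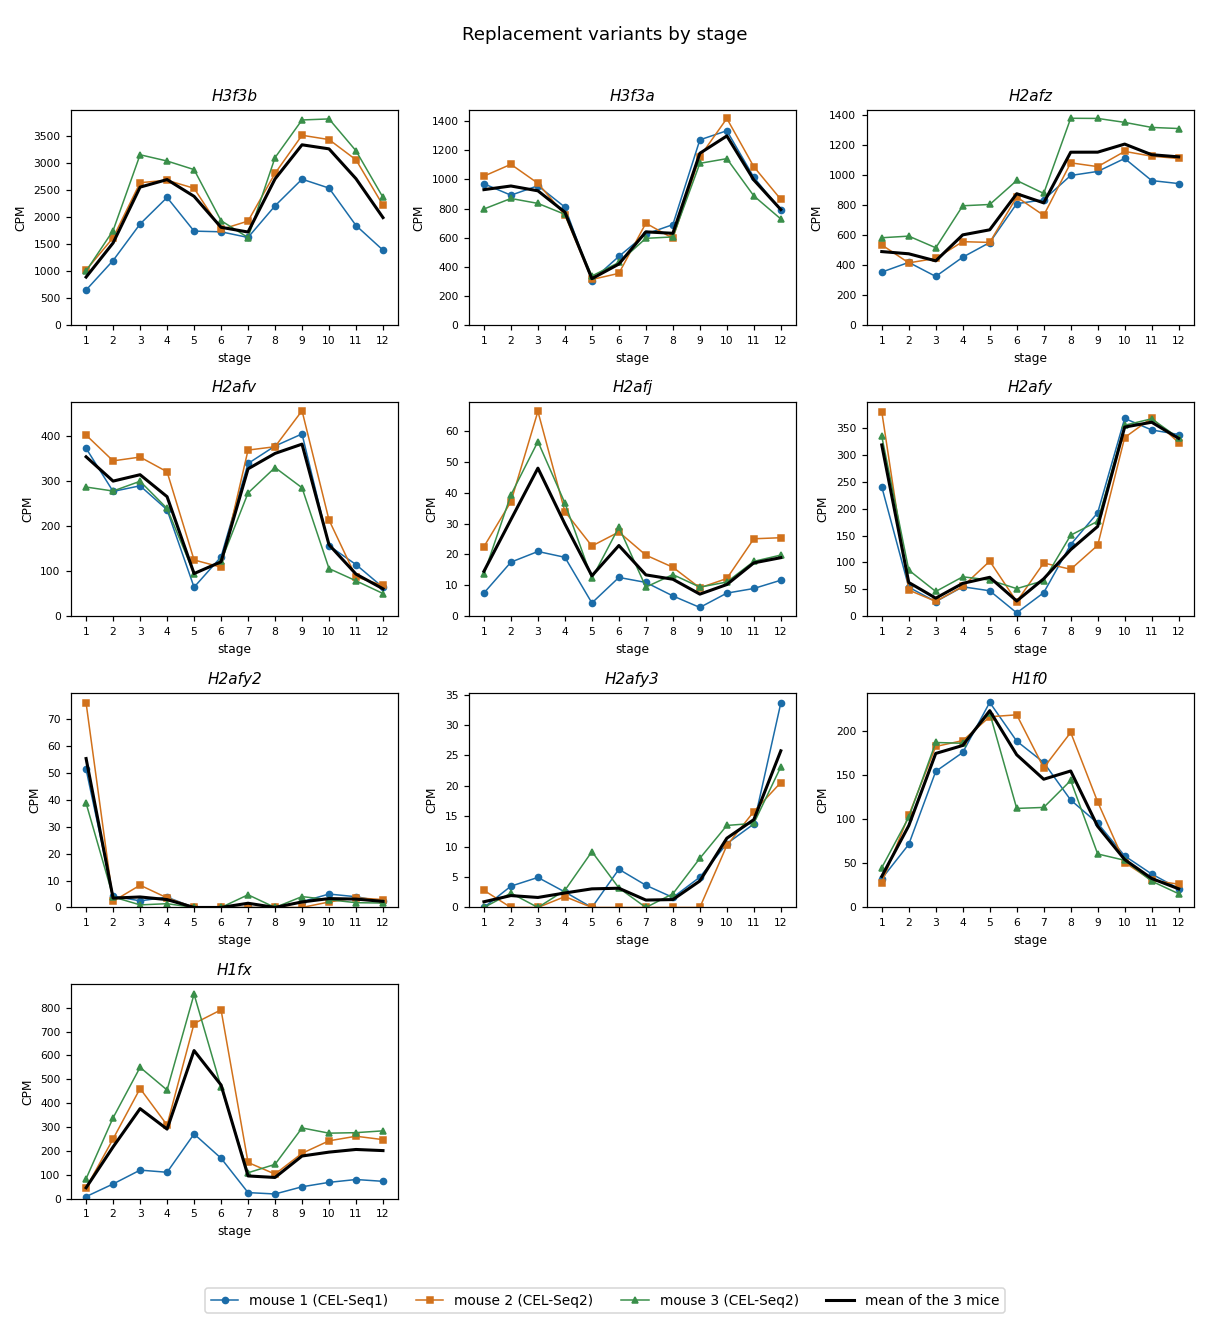
Levels of the 10 replacement variants in CPM (vertical axes, each from 0 with its own range) over the 12 stages, with points for each mouse and a black line for their mean. H3f3a and H2afv dip in stage 5, H1f0 and H1fx peak at stages 5 and 6, H2afy is high at both ends, H2afy2 is high in stage 1 alone and H2afy3 climbs to stage 12.

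Among the replication-dependent genes of the Hist1 locus, Hist1h1a (chr13:23763666-23764406), the linker gene H1.1, was the most counted one outside the genes counted almost only in mouse 1, with 237 UMIs. It stood at 8.77, 8.45 and 1.05 in stage 1, 54.7, 21.4 and 16.9 in stage 4, 116, 73.9 and 27.5 in stage 5, 12.6, 27.3 and 3.21 in stage 6 and 0.556, 1.96 and 0.236 in stage 12. Stage 5 was the highest in each mouse. It rose from stage 4 to 5 (log2 difference 1.17, SE 0.41, adjusted p = 0.028) and fell from 5 to 6 (log2 difference -2.52, SE 0.61, adjusted p = 0.0089) and from stage 1 to 12 (log2 difference -2.69, SE 0.75, adjusted p = 0.0016). Without mouse 1 these differences kept their direction and were not called, at adjusted p = 0.12, 0.18 and 0.21. The rise into stage 5 was also lost without mouse 2 or 3 (adjusted p = 0.16 and 0.052), and the fall into stage 6 without mouse 3 (0.12). Hist1h4i (chr13:22040636-22041362), an H4 gene with 117 UMIs, stood at 5.01, 5.63 and 3.14 in stage 1, 9.81, 16.2 and 2.36 in stage 2, 12.3, 5.53 and 8.63 in stage 3 and 1.67, 0.978 and 0.236 in stage 12, and was lower in stage 12 than in stage 1 in each mouse. It did not pass the filter and has no test. Hist1h2ag (chr13:22042460-22042944), an H2A gene with 98 UMIs, 79 of them in mouse 1, stood at 16.3, 0 and 3.14 in stage 1 and at 0 in stage 12. Its 16 UMIs in stage 1 against none in stage 12 put it at least 22.4-fold lower, against a floor of 3 counts over the 3 mice (adjusted p = 1.2e-06). Of those 16 UMIs 13 were from mouse 1. Without it 3 remained in stage 1, which is the floor, and the gene did not pass the filter, so bound and call rest on mouse 1.

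Hist1h2ao (chr13:21810465-21810944), an H2A gene whose last 300 bases share a run of 272 with Hist1h2ap, was counted 1973 times in mouse 1 and 1 and 3 times in the others. In mouse 1 it stood at 120.3 in stage 1, 446 in stage 2, 797 in stage 4, 534 in stage 5, 32.9 in stage 7 and 1.11 in stage 12. The fit called it lower in stage 12 than in stage 1 (log2 difference -6.29, SE 0.47, adjusted p = 5.4e-15), a call that rests on 1 mouse and was lost with DESeq2 (adjusted p = 0.10). Hist1h2ap, with 90 UMIs all in mouse 1, and Hist1h2ae, with 57, were called lower in the same way, from 5 and 7 UMIs in stage 1 to 0 and 1 in stage 12. Hist1h1c, Hist1h1d, Hist1h1e, Hist1h2ab, Hist1h2ac, Hist1h2ad, Hist1h2ah, Hist1h2ai, Hist1h2bb, Hist1h2bc, Hist1h2bp, Hist1h2bq, Hist1h2br, Hist1h3a and Hist1h3h held 23 to 72 UMIs each and were not tested. Of all 78 members, 35 held fewer than 20 UMIs in staged cells.

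Outside Hist1, the 2 tested genes counted in more than 1 mouse that were called between stages 12 and 1, Hist2h2be and Hist3h2a, were higher late. Hist2h2be (chr3:96221119-96223738), an H2B gene, stood at 3.76, 2.82 and 6.29 in stage 1, 5.7, 3.07 and 5.39 in stage 9, 21.5, 12.2 and 20.2 in stage 10 and 51.7, 23.5 and 62.8 in stage 12, and stage 12 was the highest in each mouse. It rose from stage 1 to 12 (log2 difference 3.65, SE 0.40, adjusted p = 1.4e-10), from 9 to 10 (log2 difference 1.90, SE 0.43, adjusted p = 0.00095) and from 11 to 12 (log2 difference 0.90, SE 0.24, adjusted p = 0.012). The last step was not called without mouse 3 (adjusted p = 0.2). Without mouse 1 the difference of stages 12 and 1 was 3.68, adjusted p = 6.2e-12. Hist3h2a (chr11:58954685-58956830), an H2A gene, stood at 2.51, 2.82 and 3.14 in stage 1, 8.23, 19.8 and 20.2 in stage 8, 54.4, 44.8 and 53.5 in stage 10 and 31.4, 26.4 and 24.1 in stage 12, with stage 10 the highest in each mouse. It rose from stage 1 to 12 (log2 difference 3.50, SE 0.46, adjusted p = 9.6e-09, and 3.44, adjusted p = 3.6e-08 without mouse 1) and from 9 to 10 (log2 difference 1.23, SE 0.29, adjusted p = 0.0014). Hist2h3c1 (chr3:96246685-96248509), an H3 gene with 140 UMIs, did not pass the filter. It stood at 2.51, 0 and 0 in stage 1, 7.99, 8.15 and 10.6 in stage 10 and 3.33, 2.93 and 5.43 in stage 12, and its highest stage was stage 10 in each mouse. Calls and signals did not go together throughout. Of the 10 tested cluster genes, 4 were higher in stage 12 than in stage 1, with AATAAA in the last 50 bases of Hist2h2be and Hist3h2a and not in those of Hist2h2aa1 and Hist2h2aa2. Of the 5 that were lower, Hist1h2ae held it and Hist1h1a, Hist1h2ag, Hist1h2ao and Hist1h2ap did not, and Hist4h4, which was not called, held it. Hist2h2aa1, Hist2h2aa2 and Hist1h2ae, where call and signal parted, were all counted almost only in mouse 1. Outside the genes of mouse 1, Hist2h2be and Hist3h2a were higher and held the signal, and Hist4h4 held it and was not called. Hist1h1a and Hist1h2ag were lower and did not hold it, though neither call was kept without mouse 1. The part of the signal was not tested.

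Hist2h2aa1 (chr3:96245497-96246082) and Hist2h2aa2 (chr3:96239749-96240276) are H2A copies with the same last 300 bases, and had 507 and 553 UMIs in mouse 1. There they stood at 1.25 and 1.25 in stage 1, 42.0 and 40.6 in stage 9 and 36.7 and 35.6 in stage 12. Each had 1 UMI in stage 1, and the pooled levels in stage 12 were 31.4-fold (exact 95% counting interval 5.54 to 1249) and 30.4-fold (exact 95% counting interval 5.37 to 1211) higher. The edgeR calls (adjusted p = 5.2e-06 and 0.00024) rest on mouse 1 and were lost with DESeq2, at adjusted p = 0.84 and 0.90. Hist4h4 (chr6:136801553-136804415), an H4 gene with 279, 18 and 25 UMIs, stood at 21.3, 5.63 and 1.05 in stage 1 and 21.1, 5.87 and 1.89 in stage 12, and was the tested member not called over all stages (adjusted p = 0.27).

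**Figure D4:**
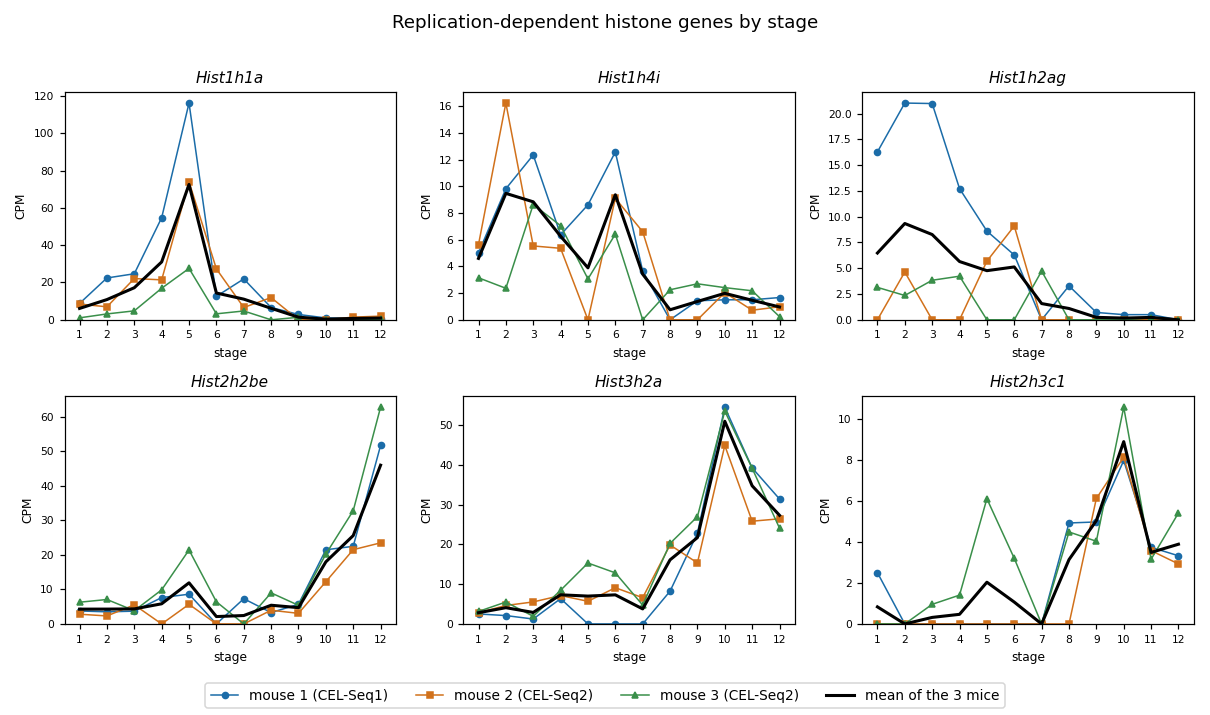
Levels of 6 cluster genes in CPM (vertical axes, each from 0 with its own range) over the 12 stages, with points for each mouse and a black line for their mean. Hist1h1a peaks in stage 5 in each mouse and Hist1h4i and Hist1h2ag are low after stage 6, while Hist2h2be, Hist3h2a and Hist2h3c1 climb from stage 8 or 9.

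Few UMIs of the testis variants were counted in these cells. The method reads only RNA with a poly(A) tract, so these counts do not show how much RNA without one was present. Hist1h2aa (chr13:23934462-23934851), with 108 UMIs, stood at 0 in stage 1, at 10.2, 5.35 and 8.46 in stage 4, 30.1, 45.5 and 12.2 in stage 5, 3.29, 23.8 and 2.25 in stage 8 and 0, 4.89 and 0.236 in stage 12. Its 0 UMIs in stage 1 allow up to 1.42 CPM (3 counts of the total, counting error only). Its neighbour Hist1h2ba (chr13:23933773-23934156), with 89 UMIs, stood at 2.51, 2.82 and 0 in stage 1, 6.36, 5.35 and 2.82 in stage 4, 25.8, 17.1 and 9.18 in stage 5, 6.58, 7.93 and 6.75 in stage 8 and 0.278, 1.96 and 0.236 in stage 12. Both genes, which share the printed upstream window, were highest in stage 5 in each mouse, on 19 and 12 UMIs. Hist1h2aa changed over all stages (adjusted p = 6.6e-05), no single step was called for it, and Hist1h2ba did not pass the filter. Hist1h2ba shares a run of 177 bases with Hist1h2bj, so some of its UMIs are uncertain.

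Hist1h1t (chr13:23695814-23696725), the meiotic linker gene, had 102 UMIs. It stood at 0 in all mice in stage 1, 12.6, 18.2 and 0 in stage 6 on 4 UMIs, 7.99, 6.11 and 0.482 in stage 10, 6.24, 7.89 and 0.395 in stage 11 and 4.44, 5.87 and 0.944 in stage 12. Mouse 3 lay under the others from stage 10 on. Stages 10 to 12 held 84 of the UMIs of Hist1h1t, and these stages also held the most autosomal UMIs. Its highest mean, 10.3 CPM, was in stage 6. The 0 UMIs in stage 1 allow up to 1.42 CPM. Among tested genes outside the set, Slc35a5, Sep15, Lrrc36 and Scly were among the 5 whose course was most like it, with Pearson r from 0.66 to 0.69 over 36 mouse-by-stage sums after removal of mouse means. With so few UMIs that likeness is weak.

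H1fnt (chr15:98255986-98257293), Hils1 (chr11:94967593-94968456) and H2afb1 are known from spermatids and had 39, 86 and 9 UMIs in staged cells. Hils1 stood at 6.17, 11.1 and 14.4 in stage 3, 6.28, 0 and 6.41 in stage 6, 0, 26.4 and 4.72 in stage 7 and 0, 12.7 and 3.54 in stage 12. Its highest stage differed between the mice: stage 6 in mouse 1, stage 7 in mouse 2 and stage 3 in mouse 3, on 1, 4 and 15 UMIs. H1fnt stood at 2.47, 2.76 and 2.88 in stage 3 and 0, 0 and 14.2 in stage 7, and H2afb1 had UMIs at stages 3, 10 and 12 alone. The 10 elongating spermatid markers together gave 0.423 UMIs per 10000 in stage 1, 2.01 in stage 3, 3.22 in stage 7 and 0.37 in stage 11. Their part in these 3 genes' levels was not tested. Before they were set aside because at least 1% of their UMIs came from these markers, 5 of 6 wells had clustered with stage 3. In these 6 wells, Hils1 had 24 UMIs, 217 CPM (exact 95% binomial interval 139 to 322), H1fnt had 38 UMIs, 343 CPM (exact 95% binomial interval 243 to 471) and H2afb1 had 15 UMIs, 135 CPM (exact 95% binomial interval 75.8 to 223). These are above every stage mean of these genes, the highest of which were 10.5, 4.72 and 2.76. In the same wells Hist1h1t and Hist1h2ba had 0 UMIs and Hist1h2aa had 1. H1foo, the oocyte linker gene, had 4 UMIs in staged cells.

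**Figure D5:**
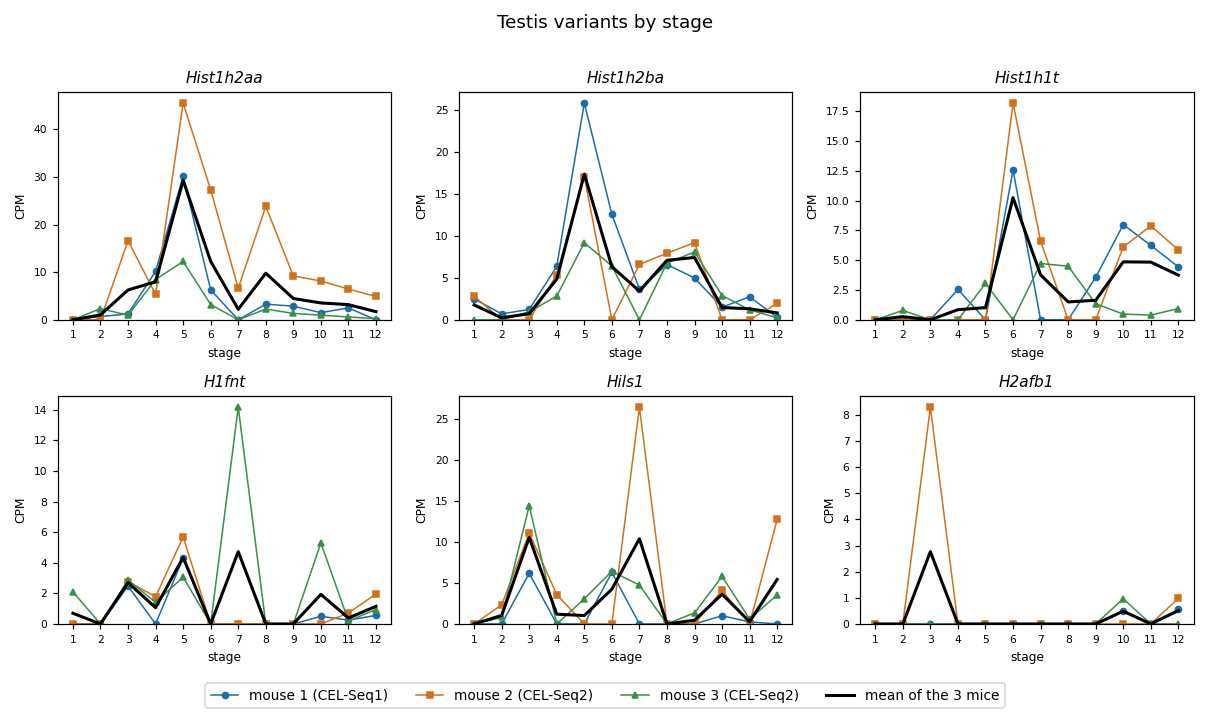
Levels of the 6 testis variants in CPM (vertical axes, each from 0 with its own range) over the 12 stages, with points for each mouse and a black line for their mean. Hist1h2aa and Hist1h2ba peak in stage 5 in each mouse, and single high points of Hist1h1t, H1fnt and Hils1 at stages 6 and 7 rest on 5 or fewer UMIs.

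The genes of DNA replication were followed beside the histone genes. The 30 S phase genes together gave 37.0 ± 4.55 UMIs per 10000 in stage 1, 62.6 ± 7.84 in stage 3, 55.6 ± 10.3 in stage 5 and 18.7 ± 2.18 in stage 8 (n = 3). Over the 36 mouse-by-stage sums, which share libraries and depth within a mouse, the Hist1 genes outside the list of mouse 1 followed them with r = 0.77, the Hist2, Hist3 and Hist4 genes with r = -0.54 and the replacement variants with r = -0.39. Cells of stages 2 to 4 were also ranked by their S phase share within mouse and stage and taken in 3 groups of about equal size, which are ranges and not cell types. From the lowest to the highest group the Hist1 genes stood at 1.42, 1.15 and 1.08 per 10000 in mouse 1, 0.223, 0.624 and 0.963 in mouse 2 and 0.299, 0.351 and 0.591 in mouse 3. They were higher in the top group in mice 2 and 3 and lower in mouse 1. The Hist1 genes counted almost only in mouse 1 stood there at 4.02, 5.97 and 8.91, and H3f3b stood at 13.9, 17.8 and 17.6, 17.9, 22.5 and 29.6, and 17.7, 24.4 and 32.3 in mice 1 to 3. H1fx, H1f0 and H2afv were also higher in the top group than in the lowest in each mouse. H3f3a was higher there in mice 1 and 3 and lower in mouse 2. H2afz was lower in the top group in each mouse, at 3.93 against 3.995, 4.99 against 5.18 and 5.22 against 6.92. Median UMIs per cell were lowest in the lowest group in each mouse, and their part was not tested.

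Genes that act on histones or in replication were also compared, against the background of 34.4% of tested genes higher and 41.0% lower in stage 12 than in stage 1. UMIs of the X chromosome stood at 2.52 ± 0.236 per 100 autosomal UMIs in stage 1 and 0.193 ± 0.124 in stage 12 (n = 3), and 367 of 407 X genes tested were lower, with a median log2 difference of -4.65. Of the lists, Pola1, Cstf2, Atrx and Rbbp7 lie on X. Of the 30 S phase genes, all tested, 7 were higher and 19 lower in stage 12 than in stage 1, with a median log2 difference of -1.32 against -0.16 for all genes, and 18 of the 29 that are not on X were lower. The largest called changes were those of Pola1 (a subunit of the DNA polymerase that primes replication), at -6.95, Mcm2 (of the replicative helicase), at -5.64, and Tk1 (thymidine kinase), at -5.47. Of 22 genes of histone mRNA synthesis and 3′ end processing, 19 were tested, 9 were higher and 8 lower, with a median of -0.06, and 0.21 without Cstf2. Cstf2 (a cleavage stimulation factor), at -4.44, Hinfp (a factor of H4 gene transcription), at -2.80, and Casp8ap2 (FLASH, needed for 3′ end processing), at -1.61, had the largest called changes. Slbp, which binds the stem-loop, stood at 275.8 ± 66.5 CPM in stage 1, 582.3 ± 129 in stage 6 and 312.6 ± 42.9 in stage 12. Of 34 histone chaperones and exchange factors, 31 were tested, 8 were higher and 15 lower, with a median of -0.29, and 13 of the 29 that are not on X were lower. The shares of the processing list and of the chaperone list called lower lie near the background. The largest called changes were in Atrx (which with Daxx loads H3.3), at -6.01, Rbbp7 (of several chaperone complexes), at -5.84, and Anp32e (which removes H2A.Z), at -5.28.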

How the data were processed

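The deposited tables hold, per the file headers and the labels, UMI counts and read counts for each gene and well, and collision-corrected transcripts, which are estimated counts. The authors deposited the counts as whole numbers. Per the submitters' processing notes, reads were mapped with BWA 0.7.10 to mm10; the annotation used for counting and its use of strand are not given in the sources used here. The columns of mouse 1 pool its 8 libraries. The deposited estimated counts served only to find the number of possible UMIs, 256 in mouse 1 and 4096 in mice 2 and 3. The highest count of a histone gene in a well was 235, 339 and 833 in mice 1, 2 and 3, so the most abundant genes of mouse 1 approach saturation.

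Wells with at least 1000 UMIs were aligned over mice with Seurat 5.3.0 on 1500 variable genes of even autosomes, without histone genes, and clustered with scanpy 1.11.5. Left out were 3 low-depth clusters (238 cells), a Sertoli-like cluster (11 cells) and 6 wells with at least 1% of UMIs from elongating spermatid markers, a rule chosen after the clusters were seen. No doublet caller was run. Of mice 1, 2 and 3, 458, 281 and 454 cells were staged, with median depths of 16275, 9830 and 14132.5 UMIs per kept well.

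UMIs were summed by mouse and stage and fitted with edgeR 4.0.16 (quasi-likelihood test, TMM, filterByExpr, mouse as block because the same animals gave every stage), and p-values were adjusted over all 11269 genes tested, with 0.05 as the threshold. Same-mouse deviations from stage means correlated with a median of 0.55 over 198 stage pairs (0.20 to 0.94). Pooled counts of 3 or fewer were compared with exact binomial intervals, which cover counting error only. The code was tested on simulated data. Named are all members with 100 or more UMIs, with values by mouse for the variants and the 10 most counted cluster genes, the 3 genes with the largest called change of each list, and the 5 genes most like Hist1h1t, 1 of which is not reported here. The members and lists were chosen with earlier results of these data known. Alternatives were DESeq2 1.42.0, other scalings, filters, staging and depth limits, reads, and leaving out each mouse. Gene annotation came from GENCODE M21 and RefSeq, both of the GRCm38 build.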

Additional observations from a re-analysis of the deposited data

Results flagged for a closer look

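In the 6 wells set aside as spermatids, which enter no comparison, Hils1 stood at 216.6 CPM, H1fnt at 343.0 and H2afb1 at 135.4, each above its highest stage mean. In CPM, H2afy differed in opposite directions in the mice between stages 1 and 12: it was higher at stage 12 by 97.2 CPM in mouse 1 (CEL-Seq1) and differed by -30.3 on average in mice 2 and 3 (CEL-Seq2), both of which were lower. The edgeR fit on mice 2 and 3 alone, with its own scaling, called H2afy higher (log2 difference 0.33, adjusted p = 0.030): the scaled fit and the CPM differ in sign there. Hist4h4 differed by -0.189 in mouse 1 and by 0.538 on average in mice 2 and 3, on few UMIs. These differences between mice were not tested, and protocol and mouse cannot be told apart.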

How the results depend on the processing

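Of 298 values of 21 named genes under 15 alternatives, 255 kept their direction and side of the threshold, 25 were no longer called, 13 became called and 5 changed sign. The sign changed for H1f0 with reads (0.0246) and with spike-ins as library size (0.94), and for H3f3a, not called in the report, with median-ratio factors (-0.0653), with DESeq2 (-0.0655) and on leaving out mouse 3 (-0.00389, up to 0.225 without another mouse). The number of members called lower at stage 12 than at stage 1, 8 in the report, was 5 with DESeq2, 3 without the replicate block and 5 with odd-autosome staging, where 17 members were tested, and ranged from 3 to 11 when 1 mouse was left out. Without mouse 1, 13 members were tested. The number called higher, 9, was 15 with no filter and 14 with spike-ins. Between stages 7 and 1, spike-ins gave 0 higher and 14 lower, and the coarser clustering (resolution 0.6) gave 8 higher. Between stages 12 and 7, spike-ins gave 0 lower, the fit without the block gave 6 higher, the coarser clustering 10 lower, and leaving out a mouse 2 to 4 lower. Over all stages 38 members were called with no filter and 13 to 24 when 1 mouse was left out. Calls between neighbouring stages, 24 higher and 18 lower, were 13 to 19 and 9 to 13 when 1 mouse was left out. Spike-ins moved the median gene by 1.53 between stages 12 and 1, no filter by 0.36, reads by 0.27 and the odd-autosome staging by 0.12. Leaving out stage 3, chosen after the data were seen, gave 9 higher and 6 lower between stages 12 and 1. The log2 ratio of stage 12 to 1 in the share of the replacement variants, 0.54, was 2.30 per spike-in UMI and 0.83 with reads; that of the Hist2, Hist3 and Hist4 genes, 2.15, was 3.92 per spike-in UMI and 3.13 with reads. The cause of these shifts was not tested. Depth limits most the cluster genes and testis variants at stages 5 to 7, where 3 counts come to 4.08 to 5.16 CPM.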
